A study of Sus scrofa with 6 samples.

Results

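The genes described here are 7 enzymes of glucose breakdown and a vascular growth factor, GPI, PFKM, ALDOC, PGK1, ENO1, ENO2, LDHA and VEGFA, taken by name from the array's gene annotation. These genes, like the further lists below, were chosen with earlier results of these data known. They were 8 of the 9 genes looked for, since no probe set was annotated to ALDOA alone, and 8 of the 6765 genes that the array names with a single symbol. They are read by 11 probe sets, 1 for each of the 7 enzymes and 4 for VEGFA. A probe set is a group of short probes for the same transcript. All 8 genes passed the filter on low signal, with 10 of the 11 probe sets, the filter being a mean level of at least 48.5.

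Glycolysis converts glucose to pyruvate in the cytosol, and lactate dehydrogenase then turns pyruvate into lactate. Most of its steps are served by several isozymes, encoded by separate genes with different tissue ranges. VEGFA encodes a secreted growth factor that drives the growth and permeability of blood vessels. The genes of many glycolytic enzymes and VEGFA are known targets of the hypoxia-inducible factors, transcription factors whose alpha subunit is stabilised when oxygen is low. The aortic valve leaflet is a thin tissue in which interstitial cells lie in a collagen-rich matrix.

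The hypertensive group comprised 3 samples of pig aortic valve leaflets held under cyclic pressure of 0 to 120 mmHg, and the normotensive group 3 samples held at 0 to 80 mmHg. Both groups came from adult female pigs, had the endothelium removed with collagenase, and were pulsed at 1 Hz for 24 h in medium with 10% serum. The comparison asks how raised pressure alters expression in the leaflet. The leaflets were cut from their blood supply and kept in culture in both groups, and the labels do not settle whether the samples of a group came from separate animals, so every p-value below reflects array-to-array spread that may be partly technical.

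Expression was measured as MAS5 signal on the Affymetrix Porcine Genome Array, in arbitrary units that can be compared between arrays for the same probe set but not between probe sets. Log2 differences are hypertensive minus normotensive, and folds are taken from means of log2 signal. Across the 14399 probe sets kept, correlations between normotensive arrays were 0.952 to 0.978. Hypertensive replicate 2 correlated at 0.946 to 0.957 with the normotensive arrays, replicate 3 at 0.885 to 0.904 and replicate 1 at 0.81 to 0.823. Replicate 2 thus stood apart from the other hypertensive arrays, and results are given with all 3 arrays, without replicate 2, and for each array by itself. The GAPDH 3′ to 5′ probe ratio, read as a sign of RNA integrity, was 3.67, 2.91 and 6.04 on hypertensive replicates 1, 2 and 3, against 3.02, 2.11 and 7.52 on normotensive replicates 1, 2 and 3. The same ratio for actin was 79.5, 81.7 and 52.5 on the hypertensive arrays, against 49.1, 41.1 and 109 on the normotensive arrays. Both ratios overlapped between the groups, and they placed hypertensive replicate 3 differently, highest of its group for GAPDH and lowest for actin. Their part in the results was not tested.

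With all 6 arrays, 7 of the 8 genes had lower mean signal at hypertensive pressure and none passed the test. By limma with Benjamini-Hochberg adjustment over all kept probe sets, adjusted p ran from 0.261 for GPI to 0.681 for LDHA. The share of kept probe sets called was 0% in either direction, and 1372 lower and 1064 higher probe sets had an unadjusted p under 0.05. At that unadjusted limit 5 of the 8 genes were lower, GPI, PFKM, ALDOC, ENO2 and VEGFA, beside 9.53% of all kept probe sets lower and 7.39% higher. Because the genes and lists were chosen with earlier results known, counts above such shares, here and below, may be partly set by the choice. The 7 enzymes had a median log2 difference of -1.25, where the median of all kept probe sets was -0.04. The hypertensive and normotensive arrays overlapped in each of the 8 genes, where 12% of kept probe sets were lower and 10.4% higher without overlap. In 7 of the genes only hypertensive replicate 2 overlapped the normotensive range or lay above it, while LDHA overlapped with or without that array.

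The values without hypertensive replicate 2 are conditional on a choice made after its likeness to the normotensive arrays was seen, which makes calls more likely. Over all kept probe sets 3505 were called without it, and 0 without hypertensive replicate 1 or without replicate 3. On that condition, 6 of the 8 genes were lower past an adjusted p of 0.05 and 0 were higher, beside 14.0% of all kept probe sets lower and 10.3% higher. All 6 arrays were also weighted by their fit to the model. The weights were 0.289, 0.195 and 2.38 on hypertensive replicates 1, 2 and 3, and 6.96, 0.931 and 1.15 on normotensive replicates 1, 2 and 3. This fit thus rests mostly on hypertensive replicate 3 and normotensive replicate 1. In it 7 of the 8 genes were lower past the threshold, all but LDHA, beside 22.3% of kept probe sets lower and 16.9% higher. In that weighted fit ENO2 had a log2 difference of -3.54, GPI of -2.15 and ENO1 of -0.65 (adjusted p = 0.000514, 0.000567 and 0.00729).

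**Figure D1:**
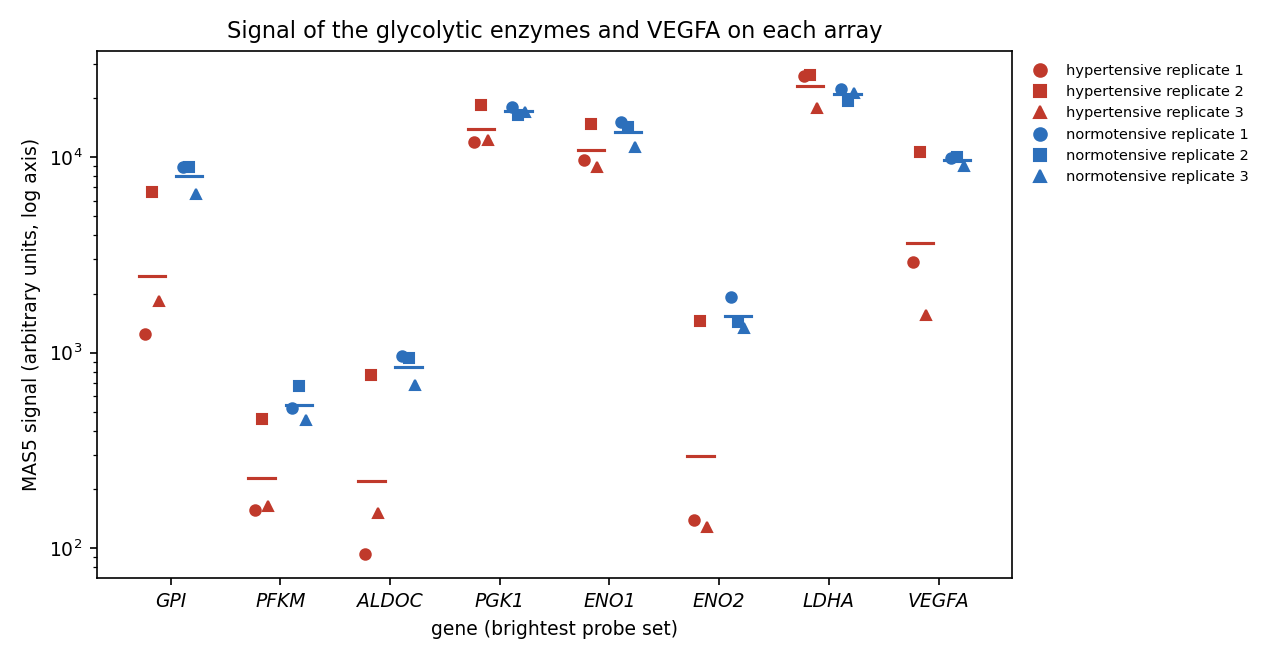
MAS5 signal (arbitrary units, log axis) of the brightest probe set of each gene, with hypertensive arrays in red on the left and normotensive arrays in blue on the right; marker shape gives the replicate number and horizontal bars are geometric means of 3 arrays. For GPI, PFKM, ALDOC, ENO2 and VEGFA the hypertensive circle and triangle (replicates 1 and 3) lie far below the normotensive points, while the hypertensive square (replicate 2) lies level with them.

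GPI, which converts glucose 6-phosphate to fructose 6-phosphate, had signals of 1251, 6627 and 1845 on hypertensive replicates 1, 2 and 3, against 8943, 8878 and 6504 on normotensive replicates 1, 2 and 3. Replicates 1 and 3 of the hypertensive group were below every normotensive array and replicate 2 was inside their range. The log2 difference was -1.69 (SE 0.55, n = 3 each, adjusted p = 0.261 by limma), and -2.40 (SE 0.24, adjusted p = 0.00206) without hypertensive replicate 2.

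PFKM encodes the muscle isoform of phosphofructokinase, the enzyme of the committed step of glycolysis. Its signals were 157, 458 and 165 on the hypertensive arrays in replicate order, against 520.4, 677 and 451 on the normotensive arrays. Replicates 1 and 3 again lay below the normotensive range, with replicate 2 at its lower end. The log2 difference was -1.25 (SE 0.45, adjusted p = 0.269), and -1.75 (SE 0.27, adjusted p = 0.00624) without hypertensive replicate 2.

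ALDOC encodes the aldolase isozyme best known from brain, which cleaves fructose 1,6-bisphosphate. Signals of 93.7, 766 and 151 on the hypertensive arrays stood against 959, 936 and 682 on the normotensive arrays. Replicate 1 had the lowest value and replicate 2 lay inside the normotensive range. The log2 difference was -1.94 (SE 0.69, adjusted p = 0.269), and -2.84 (SE 0.31, adjusted p = 0.00245) without replicate 2.

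PGK1, which makes the first ATP of the pathway from 1,3-bisphosphoglycerate, differed far less. It had 12020.1, 18439 and 12269 on the hypertensive arrays, against 17950.0, 16509 and 17019 on the normotensive arrays. Replicates 1 and 3 lay below all normotensive arrays, and replicate 2 lay above them. The log2 difference of -0.30 (SE 0.19, adjusted p = 0.409) was -0.50 (SE 0.12, adjusted p = 0.0258) without replicate 2.

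The enolases convert 2-phosphoglycerate to phosphoenolpyruvate, with ENO1 the widely expressed isozyme and ENO2 the isozyme known from neurons. ENO1 had 9649.9, 14828 and 8902 on the hypertensive arrays, against 15206, 14270.5 and 11219.7 on the normotensive arrays. ENO2 had 139, 1448 and 129 on the hypertensive arrays, against 1921, 1435 and 1343 on the normotensive arrays. In both genes replicates 1 and 3 were below every normotensive array and replicate 2 was inside their range, but the gap was much wider for ENO2. The log2 difference was -2.38 for ENO2 (SE 0.84, adjusted p = 0.269) and -0.31 for ENO1 (SE 0.23, adjusted p = 0.466). Without hypertensive replicate 2 it was -3.53 for ENO2 (SE 0.26, adjusted p = 0.00115) and -0.54 for ENO1 (SE 0.17, adjusted p = 0.0536), so that ENO2 passed and ENO1 did not. Of all kept probe sets, 0.389% had a 6-array difference as low as that of ENO2.

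LDHA encodes the lactate dehydrogenase subunit that predominates in glycolytic tissues. Its signals were 26015, 26390.5 and 17876 on the hypertensive arrays, against 22370.3, 19445 and 21278 on the normotensive arrays. Replicates 1 and 2 lay above the normotensive range and replicate 3 below it. The log2 difference was 0.14 (SE 0.17, adjusted p = 0.681) and turned to -0.03 with quantile normalization, and was 0.04 (SE 0.17, adjusted p = 0.891) without replicate 2. LDHA, PGK1 and ENO1 were among the brightest probe sets, at percentiles 99.9, 99.5 and 99.1 of mean level among kept probe sets. GPI and VEGFA lay at percentiles 94.8 and 96.5, and ENO2, ALDOC and PFKM at 66.2, 56 and 51.2. Whether very bright signals understate a difference was not tested.

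VEGFA was read by 4 probe sets that did not behave alike. The brightest, Ssc.15740.1.S2_at, had 2897, 10584 and 1562 on hypertensive replicates 1, 2 and 3, against 9877, 9991 and 9058 on normotensive replicates 1, 2 and 3. A dimmer probe set, Ssc.15740.2.S1_a_at, had 121, 633 and 65.7 on the hypertensive arrays, against 469, 527 and 251 on the normotensive arrays. In both of them hypertensive replicates 1 and 3 were below every normotensive array and replicate 2 was above every one.

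The log2 difference of the brightest VEGFA probe set was -1.41 (SE 0.59, adjusted p = 0.29), and -2.18 (SE 0.26, adjusted p = 0.00336) without replicate 2. That of the dimmer one was -1.21 (SE 0.76, adjusted p = 0.411), and -2.15 (SE 0.42, adjusted p = 0.0118) without replicate 2. The third, Ssc.10015.1.A1_at, had 1701, 2973 and 3953 on the hypertensive arrays, against 2831, 2343 and 4120.0 on the normotensive arrays, with the groups intermixed and only hypertensive replicate 1 below the normotensive range. Its log2 difference was -0.15 (SE 0.36, adjusted p = 0.839), and -0.22 (SE 0.39, adjusted p = 0.713) without replicate 2. The fourth, Ssc.15740.2.A1_at, was below the filter level on each array and was not tested. The annotation assigns all 4 to the same RefSeq transcript, and the part of it that each reads was not analysed here, so the level of VEGFA rests on which probe set is taken.

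**Figure D2:**
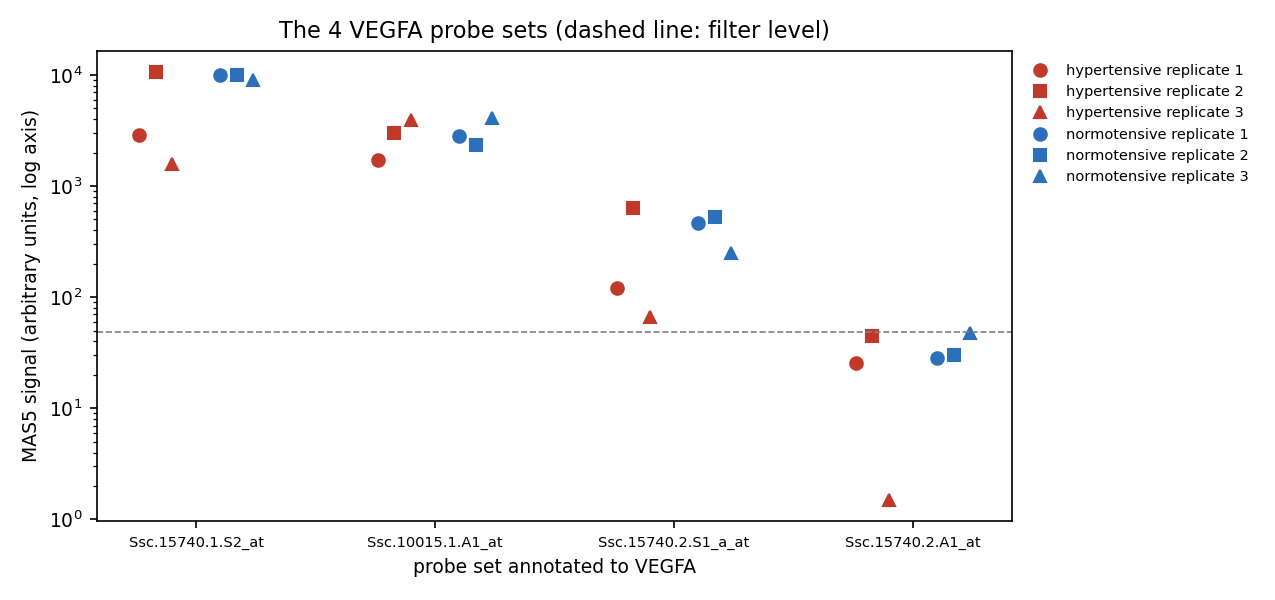
MAS5 signal (arbitrary units, log axis) of the 4 probe sets annotated to VEGFA on each array, hypertensive arrays in red on the left and normotensive arrays in blue on the right, with the filter level of 48.5 dashed. Hypertensive replicates 1 and 3 lie below the normotensive arrays in Ssc.15740.1.S2_at and Ssc.15740.2.S1_a_at, while in Ssc.10015.1.A1_at the groups are intermixed.

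Each hypertensive array was then set against the 3 normotensive arrays in a single limma fit, in which the spread comes from the normotensive arrays. These tests describe the array and not the condition, they assume that its error is like that of a normotensive array, and the 3 of them share the same normotensive arrays. On replicate 1, 6 of the 8 genes were lower past an adjusted p of 0.05, beside 22.4% of all kept probe sets, and 7 lay below every normotensive array, beside 42.8%. On replicate 3 the lower calls were also 6 of 8, beside 10.0%, and all 8 lay below every normotensive array, beside 38.7%. On replicate 2, 0 of 8 passed, beside 0.0972% lower and 0.160% higher in all.

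On hypertensive replicate 1 the signal of ENO2 was 11.1-fold below the normotensive mean (log2 -3.47, SE 0.29, adjusted p = 0.000404). ALDOC was 9.06-fold below (log2 -3.18, SE 0.30, adjusted p = 0.000544) and GPI 6.41-fold below (log2 -2.68, SE 0.23, adjusted p = 0.000422). PFKM and VEGFA were 3.44-fold and 3.33-fold below, with adjusted p of 0.00517 and 0.000518. PGK1 was 1.43-fold below (adjusted p = 0.0201). ENO1, with a log2 difference of -0.48, and LDHA, at 0.31, did not pass (adjusted p = 0.0915 and 0.106).

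On hypertensive replicate 3 ENO2 was 12-fold below the normotensive mean (log2 -3.58, SE 0.29, adjusted p = 0.00203). VEGFA was 6.17-fold below (log2 -2.62, SE 0.16, adjusted p = 0.00115), ALDOC 5.62-fold (log2 -2.49, SE 0.30, adjusted p = 0.00494) and GPI 4.35-fold (log2 -2.12, SE 0.23, adjusted p = 0.00385). PFKM was 3.28-fold below and PGK1 1.40-fold below (adjusted p = 0.0152 and 0.0453). ENO1 at -0.60 and LDHA at -0.23 did not pass (adjusted p = 0.0757 and 0.261). Of all kept probe sets, 0.111% had a difference as low as ENO2 on this array and 0.743% one as low as VEGFA. On replicate 1 these shares were 0.924% for ENO2 and 8.99% for VEGFA.

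Hypertensive replicate 2 carried differences between -0.28 for GPI and 0.33 for LDHA, with adjusted p from 0.399 to 0.923. It lay inside the normotensive range in 5 of the 8 genes, where 40.3% of all kept probe sets did, and above it in 3, PGK1, LDHA and VEGFA, where 30.7% did. Leaflets held at the same labelled pressure therefore gave ENO2 signals of 139 and 129 on replicates 1 and 3 and 1448 on replicate 2. The calls of PGK1 on replicates 1 and 3 were lost when arrays were centred on their medians (log2 -0.40 and -0.36), a scaling that moved the median of all probe sets by 0.11 on replicate 1 and 0.12 on replicate 3. Of the 11 alternatives run, 7 kept the call of PGK1 on replicate 1 and 6 on replicate 3. The call of PFKM on replicate 3 and those of the VEGFA probe set Ssc.15740.2.S1_a_at on both arrays were lost without normotensive replicate 1 (adjusted p = 0.081, and 0.0742 and 0.0637 for VEGFA).

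**Figure D3:**
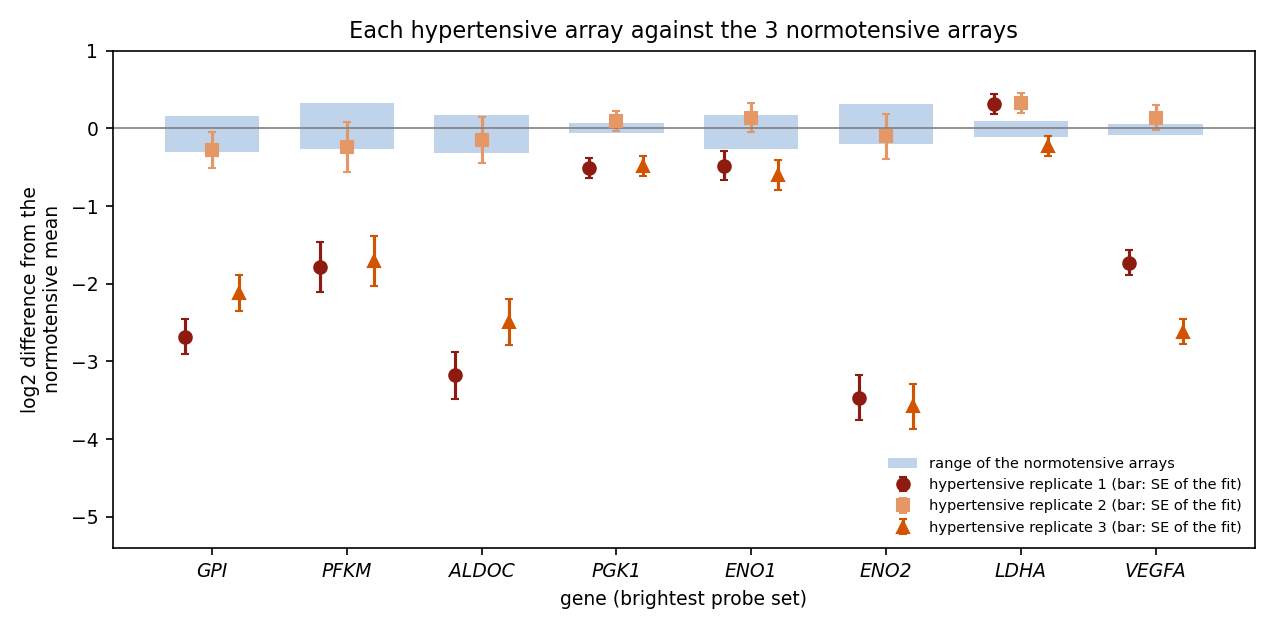
Log2 difference of each hypertensive array from the normotensive mean, by gene, with bars for the standard error of the fit and blue bands for the range of the 3 normotensive arrays. Replicates 1 and 3 lie between -1.71 and -3.58 in GPI, PFKM, ALDOC, ENO2 and VEGFA, and replicate 2 lies within 0.33 of 0 in each of the 8 genes.

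The change of an isozyme relative to another was measured as the log2 ratio of their signals within each array. A ratio of this kind shows unequal change and gives no comparison of levels. The ENO2 to ENO1 ratio was -6.11, -3.36 and -6.11 on hypertensive replicates 1, 2 and 3, against -2.98, -3.31 and -3.06 on normotensive replicates 1, 2 and 3. Each hypertensive array was below each normotensive array, although replicate 2 was below the lowest of them by only a small margin. The mean ratio was -5.19 ± 1.59 (SD, n = 3) at hypertensive and -3.12 ± 0.17 (SD, n = 3) at normotensive pressure, a difference of -2.07 (2-sided exact permutation p = 0.1, the smallest that 3 arrays against 3 allow, and 0.2 adjusted over the 4 pairs compared). Without replicate 2 the difference was -2.99 (exact p = 0.2). With quantile normalization of all 6 arrays it was -1.84 and the full separation was lost (exact permutation p = 0.2). How often other gene pairs separate in this way was not computed.

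PFKP encodes the platelet isoform and PFKL the liver isoform of phosphofructokinase. The PFKM to PFKP ratio was -1.99, -1.04 and -1.15 on the hypertensive arrays, against -0.95, -0.85 and -0.63 on the normotensive arrays, also without overlap. Its difference was -0.58 (exact permutation p = 0.1, adjusted 0.2), -0.76 without hypertensive replicate 2 and -0.29 without hypertensive replicate 1. The PFKM to PFKL ratio, a pair added after the data were seen, was -0.16, 0.12 and 0.78 on the hypertensive arrays, against 0.41, 0.36 and 1.56 on the normotensive arrays. These overlapped, with a difference of -0.53 (exact permutation p = 0.4, adjusted 0.533), and of -0.14 without normotensive replicate 3.

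LDHB encodes the lactate dehydrogenase subunit that predominates in heart. The LDHA to LDHB ratio was 0.64, 0.68 and 0.31 on the hypertensive arrays, against 0.57, 0.41 and 0.50 on the normotensive arrays. The groups overlapped, with a difference of 0.05 (exact permutation p = 0.7, adjusted 0.7), which was -0.02 without hypertensive replicate 2. ALDOC could not be compared with ALDOA, which is not analysed here.

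**Figure D4:**
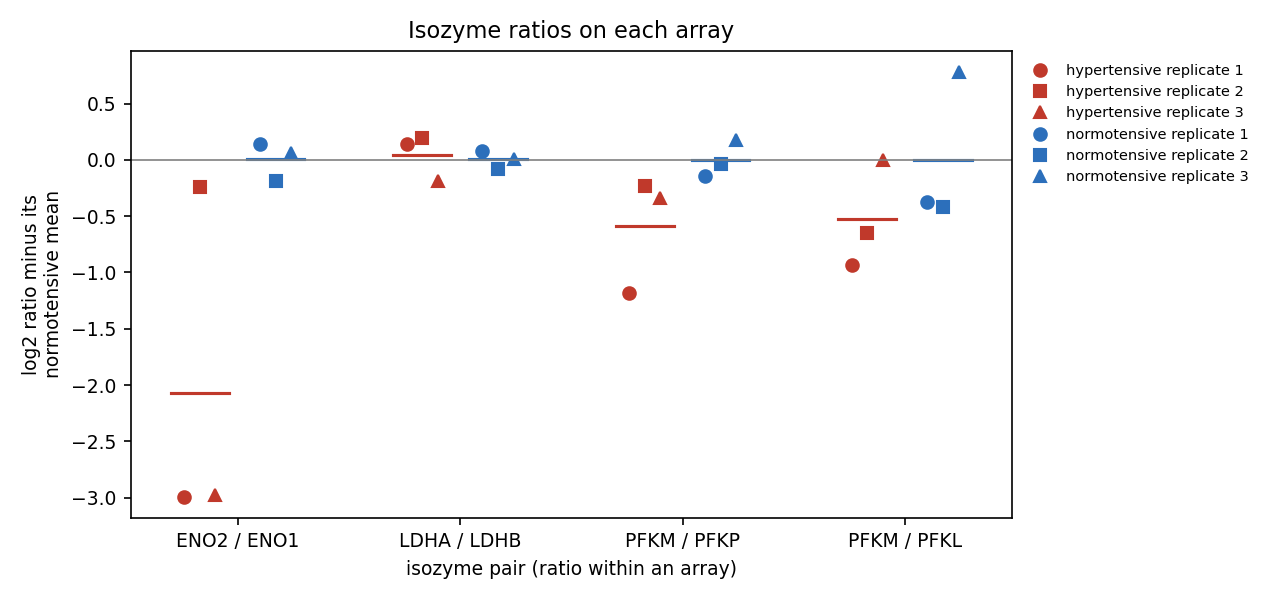
Log2 ratio of the signals of an isozyme pair on each array, minus the normotensive mean of that ratio, with hypertensive arrays in red on the left and normotensive arrays in blue on the right; bars are means of 3 arrays. ENO2 relative to ENO1 lies at -2.99 and -2.98 on hypertensive replicates 1 and 3 and at -0.24 on replicate 2.

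Of the other enzymes of glycolysis, 11 of 17 looked for were on the array and 9 passed the filter, of which 5 had a lower mean and 4 a higher mean at hypertensive pressure. Their median log2 difference was -0.25, none passed with 6 arrays, and HK1 and TPI1 were lower past the threshold without hypertensive replicate 2, 2 of 9 beside 14.0% of all kept probe sets. HK1, the hexokinase that traps glucose in most cells, had 1533, 3088 and 1969.9 on the hypertensive arrays, against 3907, 3858 and 2932 on the normotensive arrays (log2 -1.02 without replicate 2, adjusted p = 0.0184). TPI1, the triose phosphate isomerase, had 949.6, 2874 and 945 on the hypertensive arrays, against 2974, 3849.7 and 1689.6 on the normotensive arrays (log2 -1.50 without replicate 2, adjusted p = 0.0199). Both had replicates 1 and 3 below the normotensive range and replicate 2 inside it.

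GAPDH, the dehydrogenase between aldolase and PGK1 and a common control gene, had 23767, 25763 and 18059.6 on the hypertensive arrays, against 21109.7, 19708 and 21051 on the normotensive arrays. Its log2 difference was 0.11 (SE 0.15, adjusted p = 0.705) and turned to -0.05 with quantile normalization and to -0.24 with the mean of its kept probe sets. Of 6 control genes beside GAPDH, 3 had a lower and 3 a higher mean, with a median of 0.01. ACTB had a difference of 0.32 (adjusted p = 0.479). HPRT1, a purine salvage enzyme, had 717, 1713 and 1648 on the hypertensive arrays, against 2519.6, 2374 and 2921 on the normotensive arrays, lower without overlap (log2 -1.04, adjusted p = 0.269). Without replicate 2 HPRT1 was lower past the threshold (log2 -1.26, adjusted p = 0.0363), as it was on replicate 1 (3.62-fold, adjusted p = 0.00111). YWHAZ, a 14-3-3 protein gene, had a difference of -0.40 (adjusted p = 0.576), and -0.77 (adjusted p = 0.0718) without replicate 2. B2M, a further control gene, had 27316, 26416 and 18388 on the hypertensive arrays, against 18749.9, 19078 and 17235 on the normotensive arrays. Its difference was 0.37 (adjusted p = 0.311), and 0.29 (adjusted p = 0.263) without replicate 2. On replicate 1 by itself it was 0.58. The other kept B2M probe sets went both ways, from -1.12 to 0.70 with 6 arrays.

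PFKP and PFKL had 6-array differences of -0.66 and -0.72, BPGM, which makes 2,3-bisphosphoglycerate, -0.25, and PKM, LDHB and HK3 0.13, 0.09 and 0.26, with adjusted p from 0.395 to 0.809, and LDHB turned to -0.08 with quantile normalization. On replicate 3 PFKP was also lower past the threshold (log2 -1.37, adjusted p = 0.0355).

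Of transporters and regulators around glycolysis, 9 of 17 were on the array and 8 passed the filter, and each of the 8 had a lower mean at hypertensive pressure, with a median of -0.86. None passed with 6 arrays, and 4 of 8 were lower past the threshold without replicate 2, beside 14.0% of all kept probe sets. These were PDK3 and PDK4, kinases that switch off pyruvate dehydrogenase, the lactate exporter SLC16A3 and the glucose transporter SLC2A1. PDK3 had 77.7, 1012 and 110.2 on the hypertensive arrays, against 1364, 1453 and 1257 on the normotensive arrays. It was without overlap between the groups, as were 12% of kept probe sets in the lower direction, with a log2 difference of -2.72 (SE 0.85, adjusted p = 0.257), and -3.87 (adjusted p = 0.00115) without replicate 2.

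SLC16A3 had 34.3, 375 and 70.7 on the hypertensive arrays, against 462, 398 and 207 on the normotensive arrays. SLC2A1 had 526, 1696 and 773 on the hypertensive arrays, against 1607, 1687 and 1331 on the normotensive arrays. In both, replicates 1 and 3 lay below the normotensive range and replicate 2 did not. Without replicate 2 the log2 differences were -2.77 for SLC16A3, -1.27 for SLC2A1 and -2.09 for PDK4 (adjusted p = 0.00727, 0.0146 and 0.00876).

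Of 14 genes of the pyruvate dehydrogenase complex and the pentose phosphate pathway, 9 were on the array and kept, of which 7 had a higher and 2 a lower mean, with a median of 0.35. With 6 arrays none passed, and without replicate 2 PGD and DLD were higher and DLAT lower past the threshold, beside 14.0% of all kept probe sets lower and 10.3% higher. PGD, which yields NADPH in the pentose phosphate pathway, had 2639, 586 and 1971 on the hypertensive arrays, against 466, 537 and 335 on the normotensive arrays. Every hypertensive array was above every normotensive array, as in 10.4% of kept probe sets, with replicate 2 by a small margin, and the log2 difference was 1.73 (SE 0.54, adjusted p = 0.257), and 2.38 (adjusted p = 0.00348) without replicate 2. TALDO1 and RPIA of the same pathway had differences of 0.59 and 0.45 that did not pass (adjusted p = 0.33 and 0.349). DLAT, a core subunit of pyruvate dehydrogenase, had 289.6, 557 and 404 on the hypertensive arrays, against 703, 607 and 686 on the normotensive arrays, lower without overlap (log2 -0.72, adjusted p = 0.295), and -0.96 (adjusted p = 0.0346) without replicate 2. DLD, a further subunit named after its values were seen, had a difference of 0.42 (adjusted p = 0.368), and 0.65 (adjusted p = 0.0277) without replicate 2.

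VEGFB, a paralogue of VEGFA, was the only kept gene of the other VEGF ligands and receptors, of which 4 of 10 were on the array. It had 372, 509 and 436 on the hypertensive arrays, against 828, 781 and 604 on the normotensive arrays. The groups did not overlap, as in 12% of kept probe sets in the lower direction, and replicate 2 lay below the normotensive range here and above it for VEGFA. The log2 difference was -0.75 (SE 0.28, adjusted p = 0.273), and -0.86 (adjusted p = 0.0469) without replicate 2. The receptor genes FLT1 and KDR and the co-receptor gene NRP2 were below the filter level on each array.

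Of the hypoxia-inducible factor pathway, 8 of 19 genes were kept, 4 with a lower and 4 with a higher mean, and the median was -0.01. HIF1A, the oxygen-regulated alpha subunit, had 18041, 9104 and 13288 on the hypertensive arrays, against 9694, 8742 and 10681 on the normotensive arrays, with replicates 1 and 3 above the normotensive range. Its log2 difference was 0.42 (SE 0.25, adjusted p = 0.381), and 0.68 (adjusted p = 0.0302) without replicate 2. That higher call was 1 of 8 kept genes, beside 10.3% of all kept probe sets higher in that fit. A dimmer HIF1A probe set had a difference of 0.51 (adjusted p = 0.491), and 0.40 (adjusted p = 0.528) without replicate 2. Another had -0.07 (adjusted p = 0.929), and 0.06 (adjusted p = 0.921) without replicate 2. In both of these dimmer probe sets hypertensive replicate 3 lay below the normotensive range. EGLN1, the prolyl hydroxylase that marks the alpha subunit for destruction, had 728, 3155 and 2120.3 on the hypertensive arrays, against 3346, 2517 and 4246 on the normotensive arrays, and its difference of -0.96 did not pass (adjusted p = 0.351), nor without replicate 2 (-1.41, adjusted p = 0.0527). By means of log2 signal it was 1.94-fold lower, and 1.27-fold without hypertensive replicate 1. A dimmer EGLN1 probe set had 498, 2282 and 1386 on the hypertensive arrays, against 2878, 2930.4 and 3123 on the normotensive arrays, lower without overlap (log2 -1.35, adjusted p = 0.271), and -1.84 (adjusted p = 0.0165) without replicate 2. Another EGLN1 probe set, dimmer still, overlapped between the groups (log2 -1.16, adjusted p = 0.363). It did not pass without replicate 2 (-1.70, adjusted p = 0.0663). ARNT2 and EGLN2 had differences of 0.44 and -0.37 (adjusted p = 0.571 and 0.569).

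Of 26 further genes known to be induced by hypoxia, 15 were kept, and 14 of them had a lower mean at hypertensive pressure, with a median of -0.42. None passed with 6 arrays, and 6 of 15 were lower and 0 higher past the threshold without replicate 2, beside 14.0% of all kept probe sets lower and 10.3% higher. The lower calls were 7 of 15 on replicate 1, beside 22.4% of all kept probe sets, and 7 of 15 on replicate 3, beside 10.0%. CA12, a membrane carbonic anhydrase, had 224, 3516 and 587 on the hypertensive arrays, against 2633, 3021 and 3068 on the normotensive arrays. P4HA2, which hydroxylates collagen prolines, had 532, 5597 and 751 on the hypertensive arrays, against 4192, 5085 and 3116 on the normotensive arrays. In both genes replicate 2 was above every normotensive array and replicates 1 and 3 below every one.

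Without replicate 2 the log2 differences were -3.0 for CA12, -2.68 for P4HA2, -2.27 for ANKRD37, an ankyrin-repeat gene, and -1.74 for PLOD1, which hydroxylates collagen lysines (adjusted p = 0.00408, 0.00222, 0.00466 and 0.00489). With all 6 arrays they were -1.91, -1.63, -1.48 and -1.08 in the same order (adjusted p = 0.297, 0.318, 0.291 and 0.322). Leaving out hypertensive replicate 1 instead took the fold below the normotensive mean to 2.02 for CA12, 1.97 for P4HA2 and 1.78 for ANKRD37, where all 6 arrays gave 3.75, 3.1 and 2.78.

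**Figure D5:**
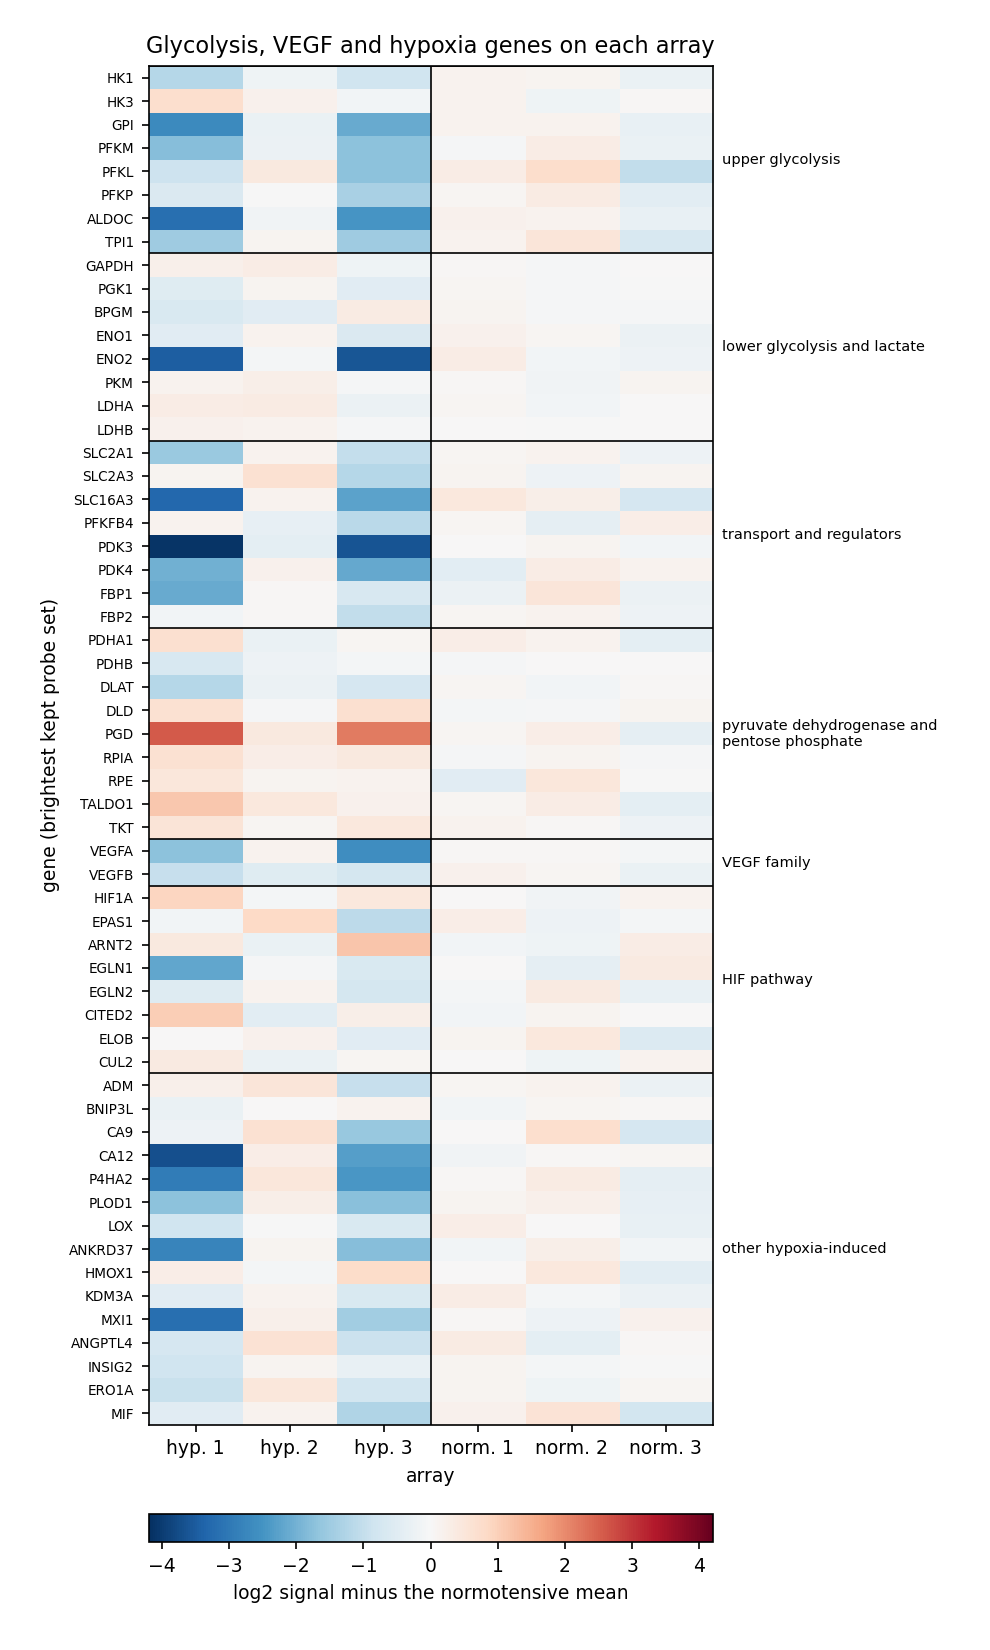
Log2 signal minus the normotensive mean on each array (columns, hypertensive arrays left and normotensive arrays right) for kept genes of glycolysis, its transporters and regulators, neighbouring routes, the VEGF family and the hypoxia pathway (rows); blue is lower and red higher. The columns of hypertensive replicates 1 and 3 are blue for GPI, PFKM, ALDOC, ENO2, PDK3, CA12 and P4HA2 and red for PGD, while hypertensive replicate 2 stays close to white in most rows.

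Markers of cells other than interstitial cells were read on the same arrays. ENO2 and ALDOC are also markers of nerve tissue, and 5 of the 8 nerve and glia markers on the array were kept. S100B, a Schwann cell and glial protein, had 428, 2079 and 452 on the hypertensive arrays, against 1722, 2231 and 1382 on the normotensive arrays, with replicates 1 and 3 below the normotensive range. GAP43, a protein of growing axons, had 33.5, 192 and 27.4 on the hypertensive arrays, against 165, 134 and 173 on the normotensive arrays. On replicates 1 and 3 GAP43 was under the filter level of 48.5. S100B and GAP43 were lower past the threshold without replicate 2 (log2 -1.99 and -2.37, adjusted p = 0.00436 and 0.00484). These were 2 of the 5 kept markers, beside 14.0% of all kept probe sets lower in that fit. UCHL1, a neuronal hydrolase, had 2937, 1768 and 4147 on the hypertensive arrays, against 3152, 2560.3 and 2917 on the normotensive arrays (log2 0.28 without replicate 2, adjusted p = 0.38). GFAP of glia had a difference of 0.40 (adjusted p = 0.542), and STMN2 and SNAP25 of neurons were below the filter level on each array. MBP, the remaining kept marker, was named after its values were seen. It had 93.5, 269 and 373 on the hypertensive arrays, against 223, 185 and 251 on the normotensive arrays (log2 -0.05, adjusted p = 0.968). Replicate 1 lay below the normotensive range and replicates 2 and 3 above it. The summed signal of the 8 markers was 3634, 4462 and 5174 on the hypertensive arrays, against 5411, 5259 and 4858 on the normotensive arrays. Most of it came from UCHL1 and S100B, so the sum follows these bright probe sets and does not measure an amount of nerve tissue. The part of these cells in the ENO2 and ALDOC values was not tested.

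Fewer cells of a type and less RNA per cell cannot be told apart in such samples. The sums below add signals of different probe sets, so each follows its brightest probe sets and does not measure the amount of a cell type. Of cardiac and skeletal muscle markers, 1 of the 14 on the array was kept, with TNNT2, TNNI3, MYL2 and CKM below the filter level on each array. The 14 endothelial markers summed to 4534, 3265 and 2177 on the hypertensive arrays, against 2670.2, 3175 and 2597 on the normotensive arrays, with VWF, TIE1, KDR, FLT1 and CLDN5 below the filter level on each. Much of the sum was SELP, P-selectin of endothelium and platelets, at 2296, 784 and 368 on the hypertensive arrays, against 95.4, 245 and 90.6 on the normotensive arrays, higher without overlap (log2 2.76, adjusted p = 0.235, and 0.0324 without replicate 2). The other 13, a sum taken after the values of SELP were seen, came to 2238, 2480.4 and 1809 on the hypertensive arrays, against 2575, 2930.5 and 2506 on the normotensive arrays. Each hypertensive sum was below each normotensive one. A large part of these sums was ERG, an endothelial transcription factor, at 899, 1019 and 973 on the hypertensive arrays, against 1675, 1142 and 1779.5 on the normotensive arrays. ERG was lower without overlap (log2 -0.64, adjusted p = 0.288). PECAM1, ENG, TEK and ESAM, also kept, each overlapped between the groups, so they did not share the separation. The 12 leukocyte markers summed to 1895, 4586 and 3231 on the hypertensive arrays, against 4194, 6409 and 3031 on the normotensive arrays, so that only hypertensive replicate 1 was below the normotensive range. The 10 interstitial cell and fibroblast markers summed to 72114, 89699.6 and 83172 on the hypertensive arrays, against 100856, 98423 and 97901 on the normotensive arrays. VIM, FN1, DCN, LUM and POSTN made up most of each sum. Each hypertensive sum, replicate 2 included, lay below the normotensive range, and all 10 markers were kept and had a lower mean. None passed with 6 arrays. The proteoglycan gene LUM and the matrix gene POSTN were lower without overlap (log2 -0.86 and -0.53), 2 of 10 beside 12% of kept probe sets. Without replicate 2 LUM and the collagen gene COL3A1 were lower past the threshold (adjusted p = 0.0104 and 0.0304), 2 of 10 beside 14.0% of kept probe sets. COL3A1 was 3.34-fold lower in that fit and 1.17-fold without hypertensive replicate 1. A dimmer POSTN probe set was also lower without overlap (log2 -2.42, adjusted p = 0.164 by limma with 6 arrays). It lay at -2.53, -3.17 and -1.57 on hypertensive replicates 1, 2 and 3, furthest below on replicate 2. ACTA2, smooth muscle actin, was 8.44-fold below the normotensive mean on replicate 2 (adjusted p = 0.0145), a gene named after its values were seen. The 4 blood cell markers summed to 2009.9, 1598 and 2692 on the hypertensive arrays, against 1637, 1758 and 1699 on the normotensive arrays. The part of these cell types in the results was not tested.

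Profiles were also compared over the 6 arrays, as log2 deviations from the normotensive mean, between VEGFA and 5263 other genes. The deviations of VEGFA were -1.73, 0.14 and -2.62 on hypertensive replicates 1, 2 and 3, against -0.09 to 0.05 on the normotensive arrays. The closest genes, by root mean square difference in log2 units, were RMND5B and MRPS9 at 0.16 each, AP2B1 at 0.18, NIT1 at 0.23, TYRO3 at 0.24 and RBMS2 at 0.25. The median profile of the 7 enzymes was -1.78, -0.10 and -1.71 on the hypertensive arrays, against -0.26 to 0.16 on the normotensive arrays. Closest to it were APEH at 0.07, ACOT13 at 0.09, ZNHIT1 and CCDC167 at 0.10 each, PRKRA at 0.13 and SSU72 at 0.14. Over all kept probe sets, 17.7% had hypertensive replicates 1 and 3 below every normotensive array and replicate 2 not below, a pattern that all of the 8 genes but LDHA showed.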

How the data were processed

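The deposited table gives a linear signal intensity for every probe set on every array. It was made by the authors with GCOS and MAS5 (no version stated), per the submitters' processing notes, and per the labels' protocols 70 ng of total RNA was amplified by in vitro transcription in repeated cycles before 10 µg of cRNA was hybridised. The 2% trimmed mean was 500.11 to 500.13 on the 6 arrays, so each had been scaled to a common level, which removes differences in total RNA. The number of arrays limits the precision.

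Of 24123 probe sets, 124 controls were left out. Of the other 23999, 10069 had 1 gene symbol, 198 several and 13732 none. The annotation's gene IDs of the 8 genes gave the same symbols in RefSeq's table for Sscrofa11.1. Signals were taken to log2 without a pseudocount, and the 14399 probe sets at or above the 40th percentile of mean log2 signal (a signal of 48.5) were kept. The brightest kept probe set stood for a gene.

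Groups, and each hypertensive array against the normotensive arrays, were tested in R 4.3.3 with the limma package, version 3.58.1 (lmFit, eBayes with an intensity trend, 2-sided, Benjamini-Hochberg over all kept probe sets, threshold 0.05). These tests were run on simulated data with the normotensive spread on every array and hypertensive arrays shifted alike. Such data cannot speak to hypertensive arrays that differ from each other, as they do here. Isozyme ratios were tested by exact permutation in SciPy 1.17.1. The genes named are the 8 genes, the other measured glycolysis enzymes, up to 4 genes of smallest p in each further list, the control genes GAPDH and ACTB, and the genes of closest profile; marker lists are given mainly as sums. The members and lists were chosen with earlier results of these data known. Alternatives were quantile normalization, a median shift, pseudocounts of 16 and 64, no filter or one at the 60th percentile, no intensity trend, robust eBayes, array weights, the mean of a gene's probe sets, the replicate number as a block and leaving out each array; the PFKM to PFKL ratio and leaving out replicate 3 of both groups were added after the data were seen.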

Additional observations from a re-analysis of the deposited data

How the results depend on the processing

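With 6 arrays, 0 probe sets passed in the main comparison; 5639 passed with array weights, 7 of the 8 genes among them. Leaving out 1 array gave 0 to 3505 calls, with 3505 without hypertensive replicate 2 and 1 without normotensive replicate 2. Same-numbered samples had correlated deviations of 0.0593, 0.072 and 0.226, each the highest of its hypertensive array, which does not establish pairing; with the replicate number as a block 0 probe sets passed and the ENO2 to ENO1 difference stayed at -2.07 (exact p = 0.25). On hypertensive replicate 1, 5349 probe sets were called, and 3007 to 7058 without 1 normotensive array. On replicate 3, 2481 were called, 1574 without the filter, 1543 without the intensity trend, and 334 to 4682 without 1 normotensive array. On replicate 2, 37 were called, 68 with quantile normalization, 97 with a median shift, 71 with robust eBayes, 0 without the filter, 0 without the trend, and 1 to 1302 without 1 normotensive array. With the median shift 52.7% of the calls on replicate 3 were higher, against 41.9% as deposited, and 44.3% on replicate 2, against 62.2%. The cause was not tested. The calls of GPI, ALDOC, ENO2 and the brightest VEGFA probe set on replicates 1 and 3 held in all 11 alternatives run on each. The median of the 7 enzymes ranged from -1.75 to -0.98 over the alternatives. By group means ENO2 was 5.22-fold lower, 11.5-fold without hypertensive replicate 2 and 3.44-fold without replicate 3; ALDOC was 3.84-fold lower, 7.14-fold without replicate 2 and 2.5-fold without replicate 1; GPI was 3.23-fold and 5.28-fold without replicate 2; and VEGFA 2.65-fold, 4.53-fold without replicate 2 and 1.74-fold without replicate 3. Leaving out hypertensive replicate 1 took PDK3 to 4.06-fold and SLC16A3 to 2.07-fold lower, where 6 arrays gave 6.6-fold and 3.47-fold.

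Directions that turned belonged to differences that did not pass in the main fit of the same comparison. LDHA turned to -0.03 with quantile normalization and -0.20 with array weights, LDHB to -0.08 and -0.02, and GAPDH to -0.05 and -0.14, and to -0.24 with the mean of its probe sets. The third VEGFA probe set turned to 0.29 with array weights, 0.19 without hypertensive replicate 1 and 0.08 without normotensive replicate 3. With array weights BPGM turned to 0.11, HK3 to -0.10, PKM to -0.03 and UCHL1 to 0.31; UCHL1 was also 0.02 with a median shift, 0.28 without hypertensive replicate 2 and 0.03 without normotensive replicate 1. Leaving out 1 array moved the LDHA to LDHB difference from -0.02, without hypertensive replicate 2, to 0.16, the third VEGFA probe set as low as -0.42 and UCHL1 as low as -0.33. ACTA2 turned to 0.45 with array weights and ranged from -1.55, without hypertensive replicate 3, to 0.38, without hypertensive replicate 2. On hypertensive replicate 2, PGK1 turned to -0.13 and ENO1 to -0.11 with quantile normalization, ENO2 to 0.06 without normotensive replicate 1, and the third VEGFA probe set to 0.21 without normotensive replicate 3.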
